A study of Mus musculus with 48 samples.

Results

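Genes of the response to amino acid shortage and to unfolded protein in the endoplasmic reticulum were followed by RNA-seq in liver spheroids and the tissues they come from. The genes were 10, namely Adm2, Atf4, Ddit3, Trib3, Chac1, Asns, Gdf15, Sesn2, Hspa5 and Xbp1, taken by symbol from the 46517 mouse genes counted, and all 10 were found. They were chosen by their TPM levels and fold changes across these 5 groups, so those values are a description without a test. Tests were made on 100 other genes of the same pathways, in 7 lists. These lists too were chosen with earlier results of these data known, so their shares and p-values are not independent support.

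Cells that lack an amino acid, or whose endoplasmic reticulum holds unfolded protein, phosphorylate the translation factor eIF2alpha. General protein synthesis then slows, while the mRNA of the transcription factor ATF4 is translated more, so that much of its control lies beyond mRNA level. ATF4 switches on genes for amino acid synthesis and uptake, tRNA charging and stress signalling. A separate branch, through ATF6 and through IRE1, which splices the mRNA of the transcription factor XBP1, raises the chaperones of the endoplasmic reticulum such as BiP. Hepatocytes secrete large amounts of plasma protein and carry an extensive endoplasmic reticulum.

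The 16 samples were 5 explants at 2 months post-tx (numbers 1, 2, 4, 5 and 6), 3 naïve irises, 3 livers, 3 preparations of isolated primary hepatocytes and 2 samples of in vitro spheroids, each with 3 technical libraries that were summed. All carry the labels WT Albino and C57BL/6N, with no transgene or drug named, and per the study's methods the mice were adults. An explant is a spheroid grafted into the anterior chamber of the eye together with the iris around it. Spheroids were made from the hepatocyte-enriched fraction of perfused liver in ultra-low adherence plates, in medium with insulin, transferrin, selenium and dexamethasone, and the labels do not give the culture day of the sequenced samples. Nothing in the labels says that samples of a group came from separate mice or cultures, so the spread between them may be technical. Total counts ran from 5449589 to 6789648 in explants and from 4596550 to 4881817 in irises. Livers had 3523171 to 3871404, hepatocyte preparations 2718518 to 3573075, and the spheroid samples 3247327 and 3447643. Levels are in TPM, the share of a sample's transcripts after scaling by gene length, and can be compared between genes.

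The labelled tissues had their own markers, with some signal of the other tissue. The 8 hepatocyte markers summed to 12844 to 15841 TPM in livers and hepatocyte preparations, 10245 to 11256 in spheroids, 4719 to 6582 in explants and 1534 to 1814 in irises. The 7 markers of iris and pigment epithelium summed to 7013 to 7322 TPM in irises and 5103 to 6352 in explants. Livers held 536 to 645 TPM of them, hepatocyte preparations 482 to 515 and spheroids 403 to 483. The source of this signal, and its part in low levels and in the iris correction, was not tested. The 8 macrophage markers summed to 559 to 646 TPM in spheroids, 146 to 246 in hepatocyte preparations and 406 to 924 in livers. The 7 markers of stellate cells and fibroblasts summed to 376 to 428 TPM in spheroids and 195 to 250 in hepatocyte preparations. Dcn alone was at 269 to 298 TPM against 107 to 153 TPM. Of the others, Lum and Col3a1 were higher in spheroids, Col1a1 and Acta2 were lower, and Lrat and Pdgfrb overlapped. The part of these other cells in the results below was not tested, and in such bulk samples fewer cells of a type and less RNA per cell cannot be told apart.

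The promoters of 4 of the 10 genes held a known motif of one branch or the other. RefSeq windows (GRCm38.p6) from 250 bases before to 50 bases after the start matched all 10 genes and were searched on both strands. The start is that of RefSeq, which for Asns, Chac1, Trib3 and Hspa5 differs from the edge of the counted gene given further below. By those edges the Trib3 match lies before the start, and the Asns and Hspa5 matches lie after it. The composite core bound by C/EBP and ATF proteins, TGATGNAA, occurred in Asns, Chac1 and Trib3, against 4.51% of all 27025 genes with a window and 3.97% of all 32851 windows. The endoplasmic reticulum stress element, CCAAT and CCACG with 9 bases between them, occurred in Hspa5, against 0.137% of all genes. Another motif, TGACGTGG, known for XBP1 and ATF6, was in none of the 10 windows and in 0.714% of all genes. A match is a description of letters and does not show a bound site, and the motifs may also lie outside these windows. The 4 genes with a match are shown because they stand for the amino acid branch (Asns, chr6:7693210-7693459, minus strand, and Chac1, chr2:119350992-119351241, plus strand, each the 250 bases before the start, and Trib3, chr2:152344028-152344057, minus strand, 30 bases after the start) and for the chaperone branch (Hspa5, chr2:34771840-34772089, plus strand, 250 bases before the start), each written 5′ to 3′ with the match in capitals, which in Chac1 and Trib3 reads on the opposite strand:
Asns: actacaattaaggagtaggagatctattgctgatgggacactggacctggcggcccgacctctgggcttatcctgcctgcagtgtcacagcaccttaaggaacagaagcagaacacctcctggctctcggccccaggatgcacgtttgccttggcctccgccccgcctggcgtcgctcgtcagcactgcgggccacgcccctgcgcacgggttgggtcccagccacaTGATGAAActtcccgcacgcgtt
Chac1: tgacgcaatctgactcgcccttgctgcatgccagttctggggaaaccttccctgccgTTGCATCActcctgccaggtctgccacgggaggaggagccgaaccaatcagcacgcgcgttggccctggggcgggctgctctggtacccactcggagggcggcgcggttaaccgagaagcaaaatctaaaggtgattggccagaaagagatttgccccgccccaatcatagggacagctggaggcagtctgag
Trib3: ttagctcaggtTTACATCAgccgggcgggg
Hspa5: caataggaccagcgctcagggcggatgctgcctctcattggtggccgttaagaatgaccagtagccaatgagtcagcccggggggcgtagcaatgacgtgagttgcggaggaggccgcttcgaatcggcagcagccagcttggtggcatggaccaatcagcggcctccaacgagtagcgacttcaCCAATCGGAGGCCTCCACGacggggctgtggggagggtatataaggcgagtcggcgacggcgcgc

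Asns, which encodes asparagine synthetase and lies on chromosome 6 (7675169 to 7693254, GRCm38, minus strand), stood far apart in spheroids. Its level was 367 and 424 TPM in the 2 spheroid samples, against 9.73, 25.3 and 17.4 TPM in hepatocyte preparations and 51.2, 64.6 and 43.9 TPM in livers. Irises held 14.6 to 16.2 TPM and explants 16.8 to 27.1 TPM. Spheroids lay above every other sample (28.1% of genes were higher without overlap against hepatocyte preparations and 31% against livers), and livers lay above every explant, while explants, hepatocyte preparations and irises overlapped. The fitted log2 fold change by edgeR was 4.19 ± 0.35 (SE) in spheroids against hepatocyte preparations and 2.78 ± 0.22 against livers. It was -1.48 ± 0.32 in hepatocyte preparations against livers, whose values did not overlap, as for 17.2% of all genes on the lower side.

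Chac1, an enzyme that breaks down glutathione (chromosome 2, 119351229 to 119354381, plus strand), was at 151 and 88.5 TPM in spheroids. Hepatocyte preparations held 24.8, 42.7 and 15.9 TPM and livers 28.9, 11.2 and 23.4 TPM, and these groups overlapped each other but not the spheroids. Trib3, a pseudokinase that binds ATF4 and other partners (chromosome 2, 152337422 to 152344032, minus strand), was at 107 and 41.3 TPM in spheroids. Its levels were 11.9, 24.3 and 16.1 TPM in hepatocyte preparations and 40.3, 19.9 and 13.3 TPM in livers, so that the lower spheroid sample lay just above the highest liver. Sesn2, sestrin 2, a leucine sensor that restrains mTORC1 (chromosome 4, 132492032 to 132510501, minus strand), was at 44.4 and 36.4 TPM in spheroids and between 6.65 and 13.99 TPM in each of the other 14 samples. The spread of Sesn2 between the spheroid samples was thus small beside their distance from all other groups. In spheroids against hepatocyte preparations the log2 fold changes were 1.75 ± 0.35 for Chac1, 1.72 ± 0.40 for Trib3 and 2.01 ± 0.23 for Sesn2 (SE).

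Adm2, which encodes the peptide hormone adrenomedullin 2 (chromosome 15, 89322972 to 89324728, plus strand), was read almost solely in spheroids. It had 45 counts (32.8 TPM) in spheroid sample 1 and 20 counts (15.4 TPM) in sample 2, spread over all 3 technical libraries of each, which had 14, 19 and 12 counts in sample 1 and 11, 4 and 5 in sample 2. Liver 1 had 3 counts, and the other 13 samples had none. Counted per total, Adm2 was at least 30.6-fold higher in spheroids than in hepatocyte preparations, at a floor of 3 counts over the group. Against livers the ratio was 35.9 (95% exact interval 11.7 to 179, counting error only). With 0 counts, a low level of Adm2 was not detectable at this depth.

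Gdf15, a secreted stress hormone of the TGF-beta family (chromosome 8, 70629393 to 70632456, minus strand), followed another order. Its level was 44.99, 130.4 and 69.4 TPM in hepatocyte preparations and 40.6 and 57.4 TPM in spheroids, against 4.51, 5.70 and 6.05 TPM in livers. Hepatocyte preparations and spheroids overlapped, and both lay above every liver, iris (1.73 to 5.18 TPM) and explant (2.90 to 10.1 TPM). The log2 fold change was 4.03 ± 0.43 in hepatocyte preparations against livers, 3.05 ± 0.33 in spheroids against livers and -1.05 ± 0.44 in spheroids against hepatocyte preparations (SE, edgeR). Gdf15 was thus high in cells that had been isolated but not cultured.

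Atf4 itself (chromosome 15, 80255184 to 80257540, plus strand) differed less at mRNA level. It was at 426 and 355 TPM in spheroids, 151, 211 and 277 TPM in hepatocyte preparations and 237, 266 and 200.4 TPM in livers. Spheroids lay above all other samples, but their log2 fold change was 0.53 ± 0.27 against hepatocyte preparations and 0.61 ± 0.18 against livers. Ddit3, the transcription factor CHOP, which promotes cell death under lasting stress (chromosome 10, 127290774 to 127296288, plus strand), had its highest levels in irises, at 110.3, 126 and 118 TPM. Its levels were 72.3 and 34.8 TPM in spheroids, 28.9 to 39.9 TPM in livers and 26.4 to 31.5 TPM in hepatocyte preparations, so that spheroids overlapped livers and only sample 1 stood apart. Of the exonic bases of Ddit3, 4.73% also belong to Gm4189 and Mars1 on the other strand, and reads there were counted for each gene without regard to strand. The other 9 genes share no exonic base with another gene.

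Of the chaperone branch, Hspa5 and Xbp1 differed less between spheroids, hepatocyte preparations and livers than Asns or Gdf15 did. Hspa5, which encodes BiP (chromosome 2, 34771970 to 34777547, plus strand), was at 760 and 838 TPM in spheroids and at 443, 614 and 796 TPM in hepatocyte preparations, which overlapped. Livers held 498, 451 and 573 TPM, below both spheroid samples (31% of all genes were higher without overlap). The log2 fold change of Hspa5 was 0.04 ± 0.31 in spheroids against hepatocyte preparations and 0.54 ± 0.19 against livers. Xbp1 (chromosome 11, 5520659 to 5525893, plus strand) was at 178 and 163 TPM in spheroids, 169, 187 and 193 TPM in hepatocyte preparations and 135, 153 and 143 TPM in livers. Its log2 fold change was -0.44 ± 0.17 against hepatocyte preparations (28.1% of all genes were lower without overlap on the fitted scale, Xbp1 among them) and 0.12 ± 0.17 against livers. In TPM, Xbp1 in spheroids and in hepatocyte preparations lay above every liver, as Gdf15 did. On the fitted scale its spheroids overlapped livers, while hepatocyte preparations lay above livers, as for 15.3% of all genes. Counts per gene do not tell spliced from unspliced Xbp1 mRNA.

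**Figure D1:**
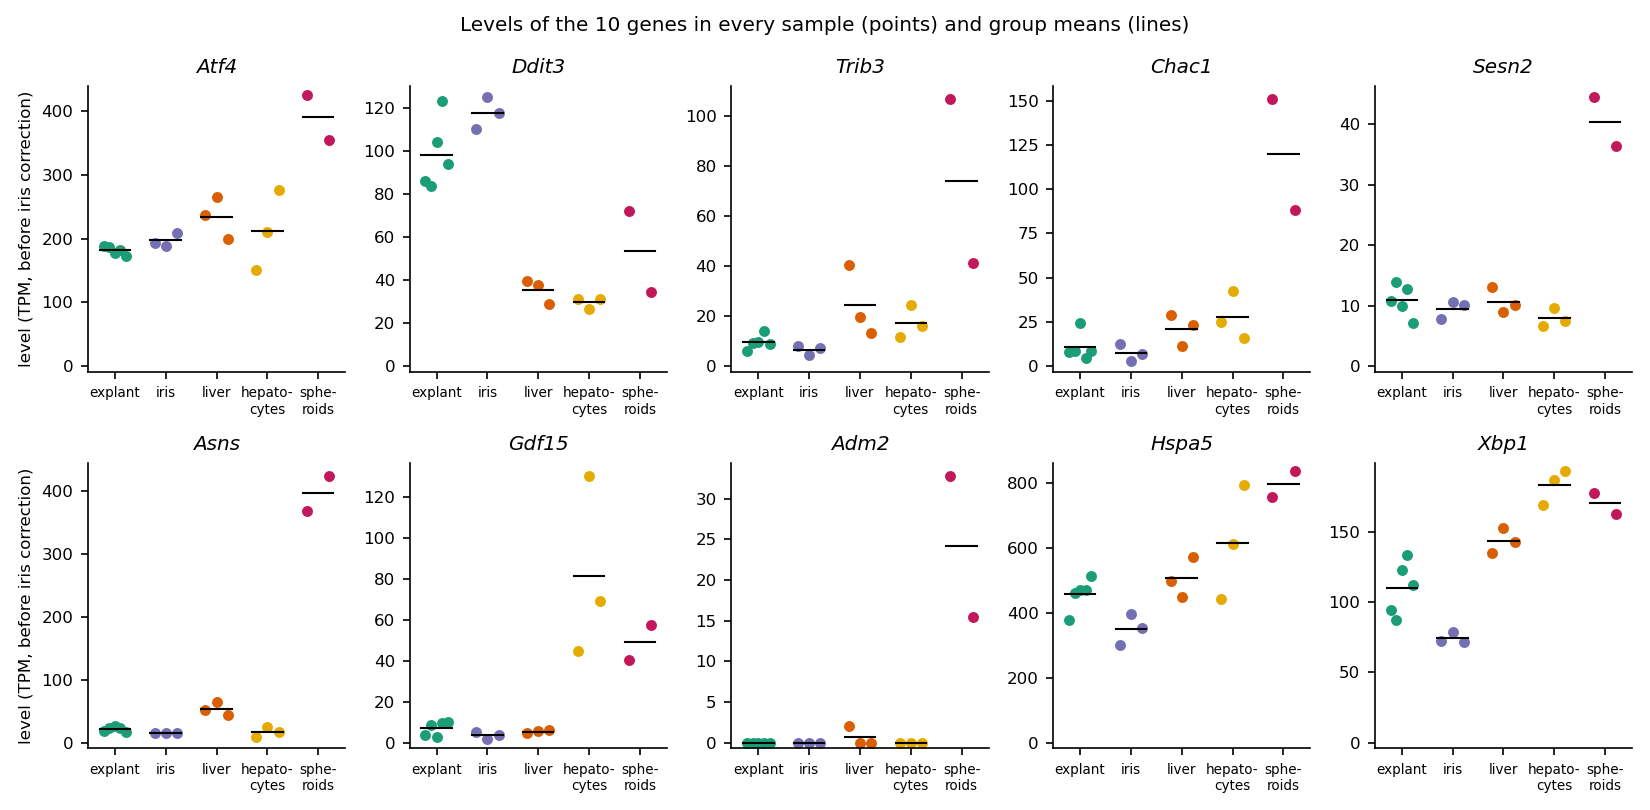
Levels of the 10 genes in TPM (vertical axis, linear, each gene on its own scale) in the 5 explants before iris correction, 3 irises, 3 livers, 3 hepatocyte preparations and 2 spheroid samples (horizontal axis), with a point per sample and a line at the group mean. Asns stands at 367 and 424 TPM in spheroids and under 65 TPM in every other sample, Gdf15 is highest in a hepatocyte preparation, and Ddit3 is highest in irises and explants.

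Spheroids had the highest group mean for 7 of the 10 genes, all but Ddit3, Gdf15 and Xbp1. Of the 40 pairs of groups next to each other in the order of means, 13 did not overlap and 27 did. The genes were chosen by these levels, and like counts over all genes were not made, so nothing is read from either count. In spheroids against hepatocyte preparations 5 of the 10 genes (Asns, Adm2, Sesn2, Chac1 and Trib3) passed an adjusted p of 0.05 and a log2 fold change of 1, beside 8.13% of all 12247 genes tested for higher calls and 9.11% for lower calls. These 5 had been chosen with such values known, and nothing is read from their share. Without spheroid sample 1 the count was 3 (Asns, Adm2 and Sesn2), the log2 fold change of Trib3 was 1.03 and that of Ddit3 was 0.01. Trib3 was also not called without hepatocyte preparation 3. Against livers 6 of 10 passed, Gdf15 included, beside 8.24% of 12959 genes for higher and 11% for lower calls, and the count was 4 without spheroid sample 1, where Trib3 and Adm2 were not called. Trib3 was also not called without liver 2 or 3 or with library size alone. In hepatocyte preparations against livers, where Adm2 had too few counts to be tested, 1 of 9 was called higher (Gdf15) and 1 lower (Asns), beside 0.409% and 2.31% of 12236 genes. Neither was called without liver 2, without hepatocyte preparation 3 or by limma-voom, and Asns was not called without livers 1 or 3 or hepatocyte preparation 2. Spheroids entered both comparisons, which are therefore not independent.

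**Figure D2:**
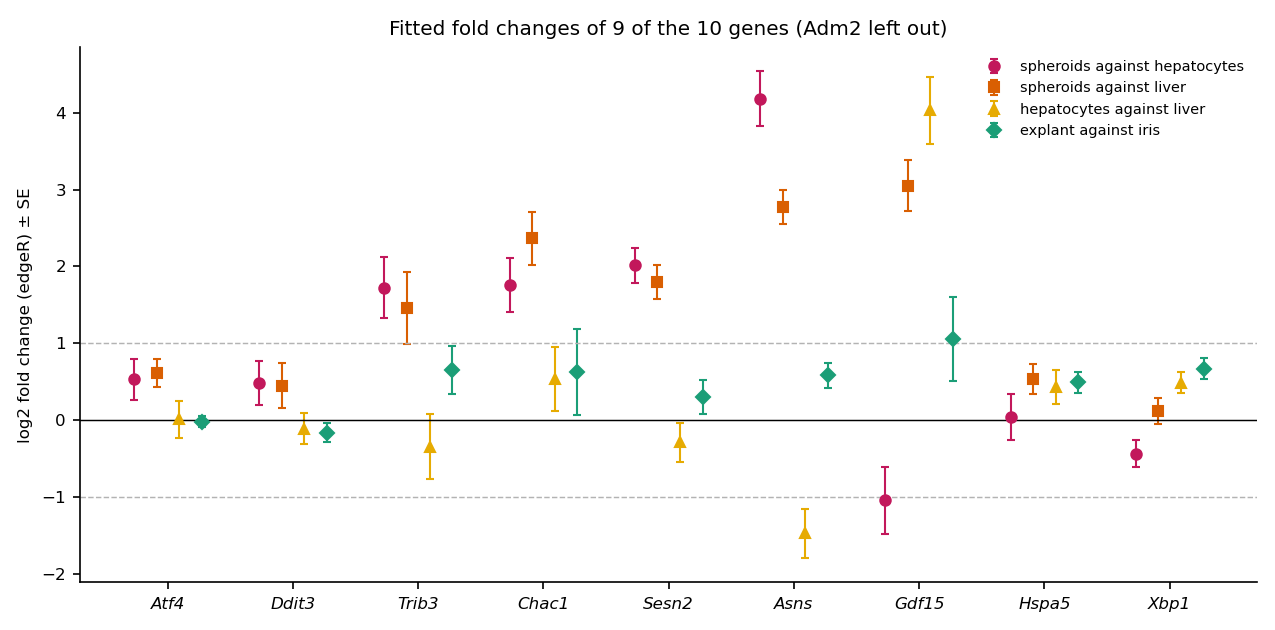
Fitted log2 fold changes with SE (vertical axis) of 9 of the 10 genes (horizontal axis) in 4 comparisons by edgeR, with dashed lines at the threshold of 1 in each direction. Adm2 is left out because a fitted fold against groups at 0 depends on the fit's prior. Asns has the highest value in spheroids against hepatocyte preparations (4.19) and Gdf15 in hepatocyte preparations against livers (4.03), whereas Hspa5, Xbp1, Atf4 and Ddit3 lie within 1 of 0.

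Many, but not all, genes of amino acid synthesis and transport were higher in spheroids than in hepatocyte preparations. Of 20 genes of amino acid synthesis and transport under ATF4, 19 had enough counts to be tested, 11 rose, 1 fell and 7 did not pass the test, with a median log2 fold change of 1.99 against 0.01 over all genes. Aldh18a1, which makes the precursor of proline, rose from 0.44 to 1.37 TPM in hepatocyte preparations to 50.03 and 27.1 TPM in spheroids (log2 fold change 4.85 ± 0.39, adjusted p = 0.00031 by edgeR). Psat1 and Phgdh, enzymes of serine synthesis, rose by 4.48 ± 0.24 and 4.00 ± 0.56 on the log2 scale. Psat1 went from 3.55 to 6.42 TPM up to 146 and 116 TPM, with an adjusted p of 5.8e-05 by edgeR. Mthfd2, of mitochondrial one-carbon metabolism, rose by 4.43 ± 0.48 to 95.1 and 66.7 TPM. Slc7a1, which carries arginine and lysine, rose from 4 counts over the 3 hepatocyte preparations to 90 and 35 counts in the spheroids (5.05 ± 0.70). Cth, cystathionine gamma-lyase of cysteine synthesis, fell by 1.42 ± 0.21 on the log2 scale, from 359 to 473 TPM down to 208 and 184 TPM.

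Of 13 cytosolic tRNA synthetases under ATF4, 6 rose, 0 fell and 7 did not pass, with a median of 0.83. Gars, for glycine, rose by 2.10 ± 0.19 on the log2 scale, from 74.1 to 102 TPM up to 537 and 417 TPM (adjusted p = 0.00045 by edgeR). Lars, Iars and Sars, for leucine, isoleucine and serine, rose by 1.42 ± 0.19, 1.39 ± 0.17 and 1.32 ± 0.16. At the other end, Aars, for alanine, had a log2 fold change of -0.01 ± 0.22. In 5 of 9 genes of this list with a window the composite core TGATGNAA was found, Gars, Iars and Aars among them, so that a match did not go with a rise in every case.

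Regulators and effectors around ATF4 were mixed. Of 15 genes, 12 were tested, 5 rose, 0 fell and 7 did not pass, with a median of 0.63. Fgf21, a hormone of fasting and amino acid shortage, rose from 57.2, 11.96 and 29.01 TPM in hepatocyte preparations to 306 and 246 TPM in spheroids (2.72 ± 0.45, adjusted p = 0.0049 by edgeR). Ddit4, an inhibitor of mTORC1, rose by 2.75 ± 0.41, Vldlr, a lipoprotein receptor, by 2.24 ± 0.48, and Tnfrsf10b, a death receptor, by 3.84 ± 0.68 from only 7 counts over the 3 hepatocyte preparations. Atf3 varied widely among hepatocyte preparations, at 15.3, 189 and 113 TPM, and its log2 fold change was -0.48 ± 0.79. Without single samples the counts of higher calls in these 3 lists ran from 8 to 11 for amino acid genes, from 5 to 6 for tRNA genes and from 3 to 5 for regulators, where 3 was reached without spheroid sample 1.

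Of 20 chaperones and folding enzymes of the endoplasmic reticulum, 1 rose (Dnajc10, a disulfide reductase, by 1.78 ± 0.24), 0 fell and 19 did not pass, with a median of -0.13. Hsp90b1, Calr and Pdia4 had log2 fold changes of -0.18 ± 0.26, -0.37 ± 0.23 and -0.23 ± 0.28. Of 12 genes of endoplasmic reticulum associated degradation none was called by edgeR, with values from -2.12 (Derl3) to 0.61 (Erlec1) and a median of -0.18. Among 12 sensors, kinases and phosphatase subunits that act upstream, Eif2ak3, the kinase PERK, rose by 1.25 ± 0.31 from 2.54 to 3.96 TPM up to 10.98 and 7.48 TPM (adjusted p = 0.0235 by edgeR). It was not called without spheroid sample 1 or without hepatocyte preparation 1 or 3, and its adjusted p ran up to 0.112 over the alternatives. None of 8 mitochondrial chaperones and proteases was called, with a median of -0.69. Over all 100 genes 96 were tested, of which 24 (25%) rose and 1 fell, beside the 8.13% and 9.11% of all genes. The lists were chosen with earlier results known, so this share is not independent support. At an unadjusted p under 0.05 there were 37 higher and 10 lower, and DESeq2 and limma-voom called 23 and 24 higher. Scaling by library size alone moved the median log2 fold change of all genes from 0.01 to 0.27, gave 29 higher and 1 lower, and moved the share of higher among all calls from 47.2% to 65.5%. Ratios of TPM carry a like shift, with a median of 1.26 over the genes tested, so that ratios of TPM stand above the fitted folds.

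**Figure D3:**
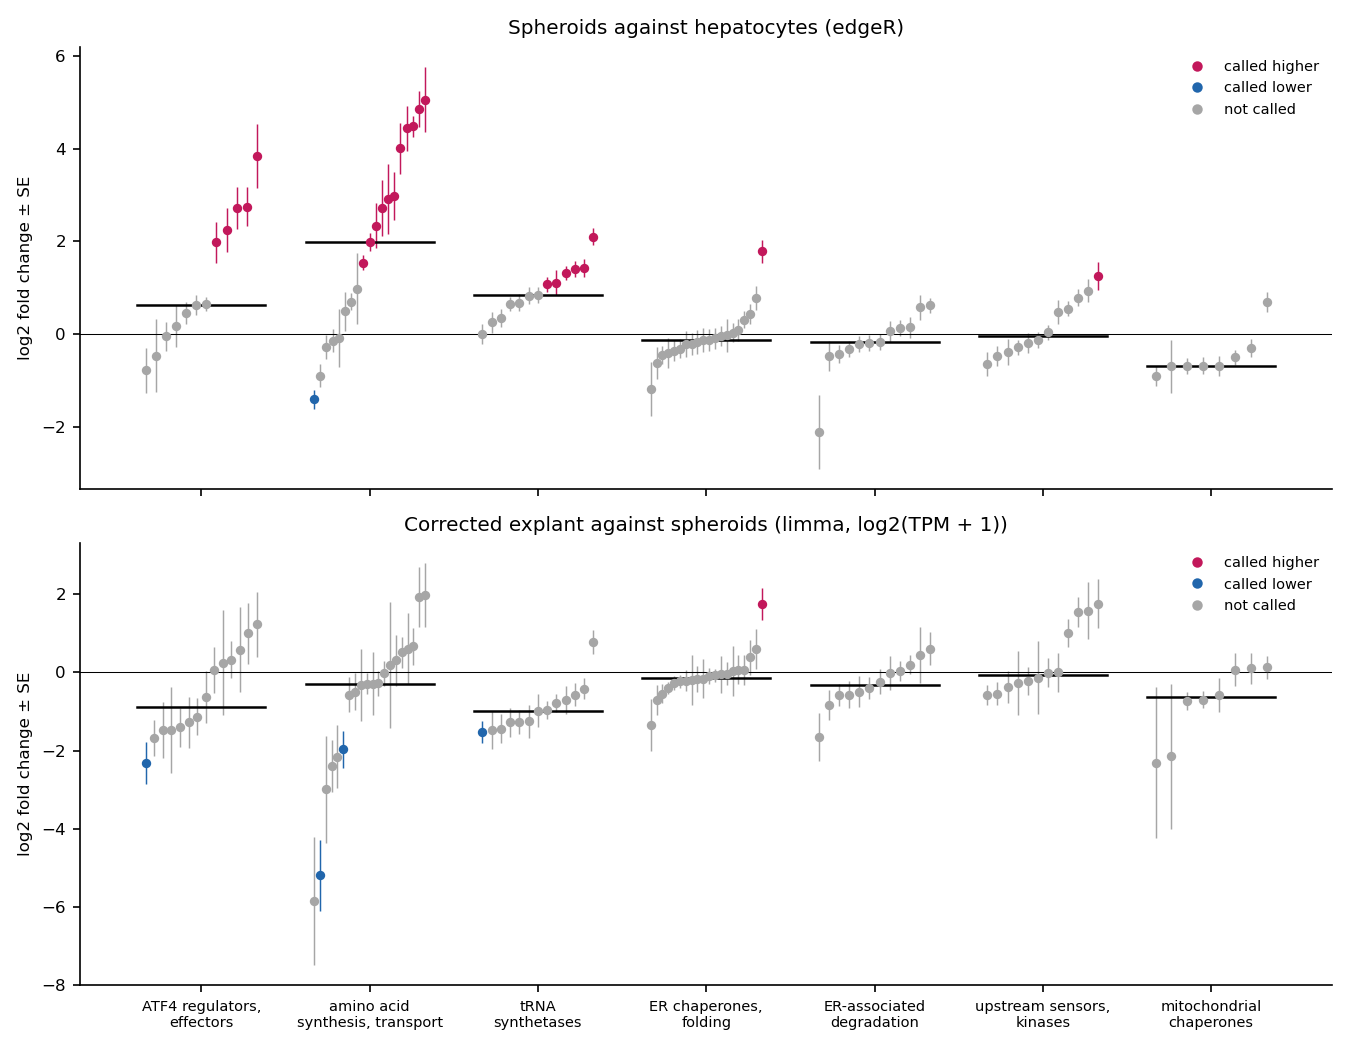
Log2 fold changes with SE (vertical axis) of the genes of the 7 pathway lists (horizontal axis, each list in rising order, with a line at its median) in spheroids against hepatocyte preparations (upper panel) and in corrected explants against spheroids (lower panel). In the upper panel 11 amino acid genes, 6 tRNA genes and 5 regulators are called higher and the chaperone list lies around 0, with 1 call. In the lower panel 4 genes are called lower and 1 higher.

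Against livers, spheroids gave similar counts. Of 96 genes tested 30 rose and 2 fell, beside 8.24% and 11% of all genes, with 11 of 19 amino acid genes, 8 of 13 tRNA genes, 6 of 12 regulators and 2 of 20 chaperones higher. Mthfd2 rose by 4.77 ± 0.27, Phgdh by 4.67 ± 0.64 and Psat1 by 4.12 ± 0.41 on the log2 scale. Atf3, a transcription factor induced by stress, rose by 3.17 ± 0.39 from 6.73 to 15.2 TPM in livers up to 135 and 60.9 TPM. Fgf21, at 89.9, 104 and 97.8 TPM in livers, lay below both spheroid samples. Cth fell by 1.36 ± 0.37, and was not called without liver 1 (-0.90) or without either spheroid sample. Lonp1, a mitochondrial protease, fell by 1.198 ± 0.28, and was not called without liver 1 or without spheroid sample 2 (-0.95). The count of regulators was 3 without spheroid sample 1 and also without liver 2, that of amino acid genes was 7 without spheroid sample 1, and that of chaperones was 1 without spheroid sample 2.

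Between hepatocyte preparations and livers no gene of the 7 lists was called by edgeR among 91 tested, in either direction, beside 0.409% and 2.31% of all genes. At an unadjusted p under 0.05 there were 10 higher and 7 lower, DESeq2 called 2 higher and 1 lower, and limma-voom called none. The median log2 fold change was 0.07 over the lists and 0.01 over all genes. Atf3 had a log2 fold change of 3.57 ± 0.80 that missed the threshold (adjusted p = 0.051 by edgeR), and hepatocyte preparation 1, at 15.3 TPM, lay next to the highest liver, at 15.2 TPM. Without hepatocyte preparation 1, 3 genes were called higher and 2 lower. Calls over all genes in this comparison also hung on single samples, from 4 higher and 4 lower without hepatocyte preparation 3 to 110 higher and 338 lower without preparation 1.

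In explants, before any correction, none of the 9 genes with enough counts was called against irises, beside 6.16% of 16764 genes for higher and 0.316% for lower calls. DESeq2 and limma-voom called none either, and 3 of the 9 had an unadjusted p under 0.05 by edgeR. These counts are a description, since the genes were chosen with such values known. Hspa5 was at 380, 461, 472, 470.1 and 515 TPM in explants 1, 2, 4, 5 and 6 and at 302, 398 and 354 TPM in irises (log2 fold change 0.49 ± 0.14). Xbp1 was at 94.7, 87.4, 123, 133 and 112 TPM in explants, above 72.4, 78.8 and 71.3 TPM in irises (0.67 ± 0.14). Asns was at 18.3, 23.2, 27.1, 23.5 and 16.8 TPM against 15.8, 16.2 and 14.6 TPM (0.58 ± 0.16). For Xbp1 and Asns every explant lay above every iris, a pattern held by 14.2% of all genes, with 8.74% the other way. Adm2 had no count in any explant or iris.

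Of the pathway lists, 97 genes were tested in explants against irises, 6 rose (6.19%, near the 6.16% of all genes) and none fell by edgeR, so that the lists did not stand out by their count. DESeq2 and limma-voom also called none lower, and 4 were lower at an unadjusted p under 0.05. Atf3 rose by 2.49 ± 0.24, from 5.29 to 7.60 TPM in irises up to 28.1 to 47.5 TPM. Macrophage markers summed to 868 to 2103 TPM in explants and 555 to 594 in irises, and their part in this was not tested. Gpt2 and Cth, enzymes of alanine and cysteine metabolism that hepatocytes express, rose by 3.32 ± 0.43 and 3.07 ± 0.53, and the liver factor Creb3l3 by 4.53 ± 0.54, of which Cth was not called by limma-voom. Fgf21 had 172 counts over the 5 explants and 2 over the 3 irises, a ratio of 41.2 per total (95% exact interval 11.2 to 343, counting error only). Sdf2l1, a cofactor of BiP, rose by 1.34 ± 0.24, and was not called with all 5 groups in a single fit (1.30, adjusted p = 0.104 by edgeR).

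To set explants beside liver tissue, the iris part was removed by the authors' formula, which subtracts the mean iris level times an iris share of 82%, 68%, 81%, 72% and 59% in explants 1, 2, 4, 5 and 6 and divides by the rest. Values below 0 become 0. The deposited values of explant 4 depart from this formula, which was applied here to all 5. After it, Asns was at 30.9, 39.5, 76.5, 43.9 and 18.6 TPM, overlapping the livers and below both spheroid samples. Atf4 was at 148, 166, 90.7, 145 and 139 TPM, below every liver (8.74% of all genes were lower without overlap and 19.8% higher) and every spheroid sample (9.47% lower and 17.1% higher). Hspa5 was at 508, 694, 985, 775 and 751 TPM and Xbp1 at 188, 116, 329, 285 and 166 TPM, both overlapping livers and spheroids. Explant 4, with 19% left after removal of the iris, had the highest Asns, Hspa5 and Xbp1 and the lowest Atf4. Adm2 stayed at 0 in all 5.

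**Figure D4:**
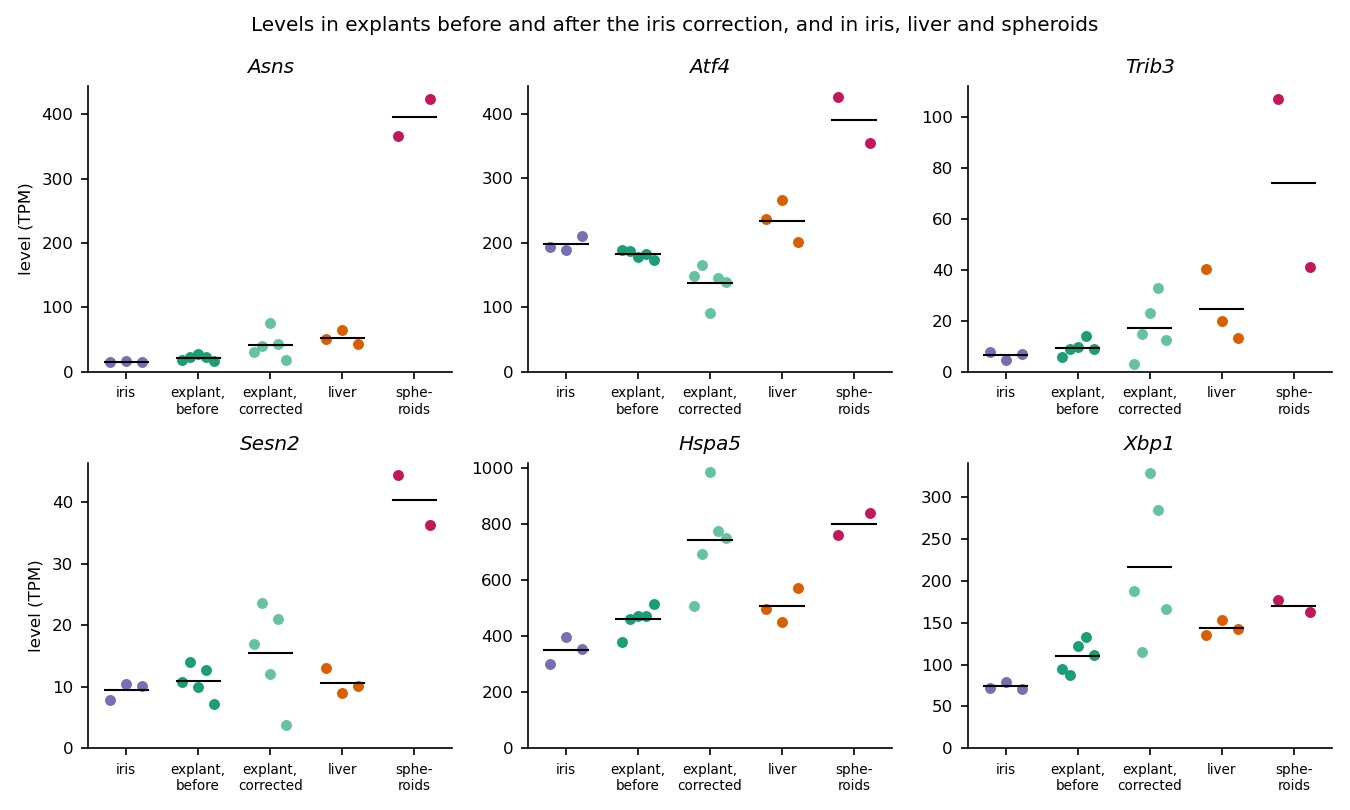
Levels in TPM (vertical axis, from 0) of 6 of the genes in irises, explants before and after the iris correction, livers and spheroids (horizontal axis), with a point per sample and a line at the group mean. Corrected explants run from 18.6 to 76.5 TPM for Asns, from below to above the livers at 43.9 to 64.6 TPM. For Asns they lie far below the spheroids, while for Hspa5 and Xbp1 they overlap the spheroids.

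Against spheroids, 3 of the 10 genes were called lower in corrected explants (Asns, Atf4 and Adm2) and none higher, by limma on log2(TPM + 1). Over all 21217 genes tested, 0.957% were called lower and 5% higher. The 10 had been chosen with such values known, and nothing is read from their share. The median of all genes was 0.54, and changes are read against it. Asns had a log2 fold change of -3.35 ± 0.50 and Atf4 of -1.52 ± 0.29, whereas Hspa5 had -0.13 ± 0.24 and Xbp1 0.25 ± 0.41. All of these lay below that median. Chac1 (-3.40 ± 1.43), Gdf15 (-2.53 ± 1.27), Trib3 (-2.20 ± 0.84), Sesn2 (-1.52 ± 0.69) and Ddit3 (-1.23 ± 1.68) were not called. Of them Gdf15, Trib3 and Sesn2 lay below both spheroid samples in every explant, as did 9.47% of all genes. Of 99 pathway genes tested, 4 fell and 1 rose. Fgf21 fell by 2.33 ± 0.54, Mthfd2 by 1.97 ± 0.46 and Gars by 1.53 ± 0.29, with adjusted p of 0.044, 0.046 and 0.021 by limma. Phgdh fell by 5.20 ± 0.90, but it was at 133 to 169 TPM in irises, and before correction its log2 fold change was 0.96. Sdf2l1 rose by 1.75 ± 0.41. Without spheroid sample 1 or 2 no pathway gene was called by limma in either direction, and calls over all genes fell too, to 182 higher and 16 lower without sample 1 and to 136 and 29 without sample 2. The calls of Mthfd2, Fgf21 and Sdf2l1 were also lost without several single explants. Of the 10 genes, none was called without spheroid sample 1 and only Adm2 without sample 2. The deposited corrected values left Asns alone.

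Against livers, none of the 9 genes tested was called in corrected explants, beside 11.8% of 21002 genes for higher and 3.01% for lower calls. At an unadjusted p under 0.05 by limma 1 was higher and 1 lower. Both counts are a description, since the genes were chosen with such values known. The median of all genes was 0.61. Atf4 had -0.78 ± 0.24 and did not overlap livers, Asns -0.47 ± 0.43, Hspa5 0.52 ± 0.21 and Xbp1 0.49 ± 0.33. Of 98 pathway genes 15 rose (15.3%, beside 11.8% of all genes) and 1 fell (1.02%, beside 3.01%). Their median log2 fold change was 0.16, below that of all genes. With the deposited corrected values 6 rose, and 26 rose and 15 fell on TPM before correction. Aldh18a1 rose by 2.87 ± 0.41 and Mthfd2 by 2.51 ± 0.44, to 19.6 to 31.7 TPM and 12.6 to 28.01 TPM. Atf3 rose by 3.49 ± 0.42 and Tnfrsf10b by 3.34 ± 0.60. Irises held 11.3 to 18.01 TPM of Tnfrsf10b, 11.98 to 13.6 TPM of Aldh18a1 and 4.30 to 9.92 TPM of Mthfd2. Explants before correction held 12.4 to 18.4, 14.2 to 18.8 and 8.27 to 13.9 TPM of them. The rises of these genes thus rest on what was left after the iris part was removed. Slc7a11, the cystine transporter, rose by 3.41 ± 0.60, though irises held 38.4 to 41.6 TPM of it. Creb3l3 fell by 1.04 ± 0.22. It was not called without explant 1 (-0.90) or without any 1 of the 3 livers. Both comparisons of corrected explants share the same 5 samples.

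The composite core was found in 5 of 12 regulators, 4 of 15 amino acid genes and 5 of 9 tRNA genes with a window, and in none of 16 chaperones, against 4.51% of all genes. The endoplasmic reticulum stress element was found in 7 of 16 chaperones (Calr, Canx, Creld2, Dnajc3, Ero1b, Hsp90b1 and Pdia6) and 2 of 10 degradation genes, and in none of the 3 lists under ATF4, against 0.137% of all genes. None of these 7 chaperones was called in spheroids against hepatocyte preparations. The lists were drawn up from genes already placed in these pathways, so the motif shares are a description and no support.

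**Figure D5:**
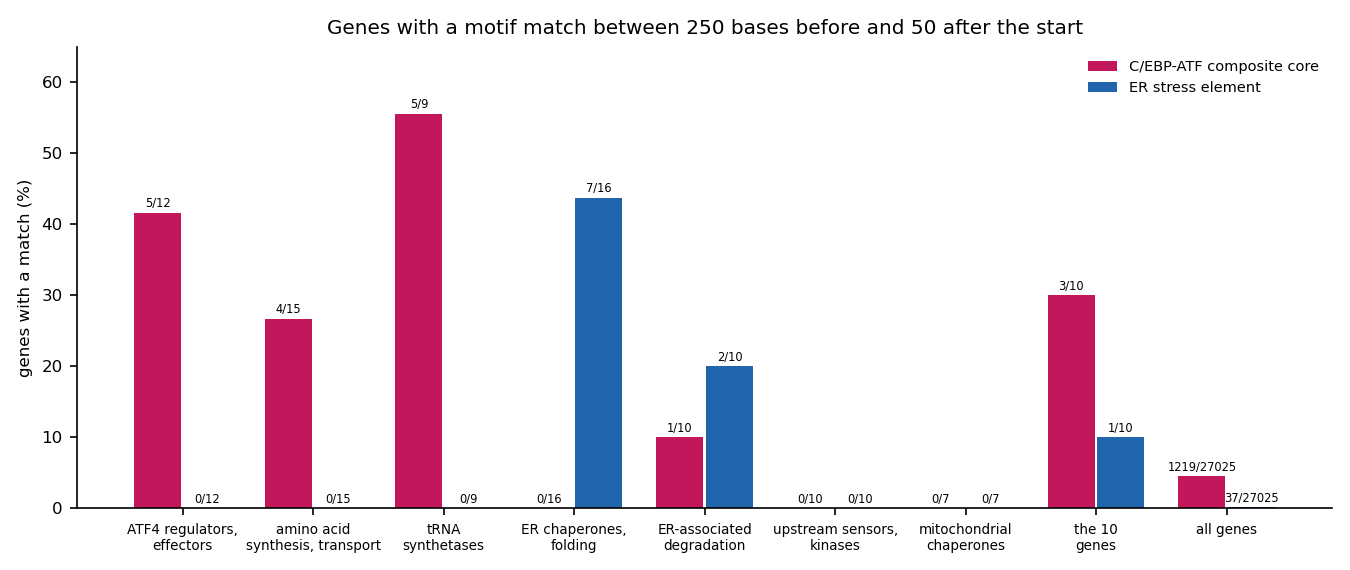
Share of genes (vertical axis, percent, from 0) with a match to each of 2 motifs from 250 bases before to 50 bases after the start, for the 7 lists, the 10 genes and all genes (horizontal axis), with the number of genes above each bar. The composite core occurs in 26.7% to 55.6% of the 3 lists under ATF4 and the stress element in 43.8% of the chaperones.

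The genes whose levels ran most like the 10 were sought among 13657 other genes with a mean of at least 5 TPM, by Pearson's r of log2(TPM + 1) over the 16 samples, which fall into 5 groups and share them. Nearest to the mean of the 10 were Trp53inp1 (r = 0.969), which acts in autophagy and cell death under stress, Sorbs2 (0.963) and Sec61a1 (0.958), a subunit of the channel into the endoplasmic reticulum. The tRNA synthetase genes Mars1 (0.9505), Cars (0.949) and Eprs (0.944) were among the first 10, and Mars1 shares bases with Ddit3. The others were Psmd6, Hax1, Ppip5k2 and Fbxw9. Trp53inp1 had means of 167 TPM in spheroids and 42.4 TPM in hepatocyte preparations. Nearest to Adm2 were Psmd8 (0.967), Gm26880, Cyp2b10, Sult2a1 and Cyp1a1 (0.956). Cyp2b10, a drug-metabolising enzyme, had means of 1642 TPM in spheroids and 24.03 TPM in hepatocyte preparations. Nearest to Atf4 were Rplp0 (0.943), Mgat2, Mxd3, Trp53inp1 and Lrrc59. Nearest to Hspa5 were Manf (0.930), a secreted protein of the endoplasmic reticulum, Net1, Tars, Igfbp1 and Ubxn4. Of the 10 genes themselves, Ddit3 alone ran against the mean of the other 9, with r = -0.505, while the rest had r from 0.528 to 0.904.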

How the data were processed

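The authors made bulk RNA-seq libraries with Smart-seq3. Per the submitters' processing notes reads were aligned to mm10 with TopHat2, handled with SAMtools and counted per gene with featureCounts (version 1.4.6-p5 in the file headers), counting a read for every gene it overlaps. The authors deposited counts per library and per sample, gene lengths, TPM calculated from the counts, and a table of iris-corrected TPM, a signal on the TPM scale. TPM recalculated here from the deposited counts matched the deposited TPM. Duplicate reads had been removed, and counts per base and library reached 0.385 for Hspa5 and at most 0.213 for the other 9 genes, beside 1.70 for the highest gene of at least 500 bases, so that none of the 10 was near that limit.

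Libraries were summed to 16 samples. In R 4.3.3, the quasi-likelihood test of edgeR 4.0.16 was run on counts of the groups compared, with TMM factors and filterByExpr. Corrected TPM were fitted with limma 3.58.1 with trend on log2(TPM + 1) for genes with a mean of at least 1 TPM, and such folds understate the change of low genes. A call needed a p under 0.05 after Benjamini-Hochberg adjustment over all genes tested, and an absolute log2 fold change over 1. Alternatives were DESeq2 1.42.0, limma-voom, RLE size factors, library size alone, no filter, all 5 groups in a single fit, a replicate block, pseudocount 0.1, deposited corrected values, TPM before correction, and each sample left out. Fits were tested on simulated data. Named genes were the 10, up to 4 called genes without overlap per list, comparison and direction, the genes most alike, and markers. Other list members named (Aars, Hsp90b1, Calr, Pdia4, Derl3, Erlec1 and those with a motif match) were picked after their values were seen, as were Phgdh in spheroids against hepatocyte preparations, Atf3 where it was not called, and Fgf21 against livers. The 10 genes and the lists were chosen with earlier results of these data known. Intervals and floors cover counting error only. Figures were drawn with matplotlib in Python 3.11.15. A library count table without gene identifiers was not used here.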

Additional observations from a re-analysis of the deposited data

Results flagged for a closer look

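Chac1 in explant 4 stood apart from the other explants. Its level was 24.1 TPM, against 4.71 to 8.76 TPM in the other 4, a gap of 0.791 of the whole range, where 0.71 is the limit for 5 samples. After the iris correction it was 95.4 TPM, against 0 to 11.6 TPM, a gap of 0.879. The corrected value comes from the same reads. Chance flags about 1 in 20 groups, and 18 sets of 5 values were looked at.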

How the results depend on the processing

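Of 154 counts of called pathway genes, 109 stayed within 1.5 times the reported count and 45 moved. In spheroids against hepatocyte preparations the lower count was 2 by DESeq2, 3 with no filter and 2 with the replicate block, and 1 to 3 with each sample left out, while the higher count ran from 20 to 23. In hepatocyte preparations against livers the higher and lower counts were 2 and 1 by DESeq2 and 3 and 2 with no filter, the higher count was 1 by library size alone and 3 with all 5 groups in a single fit, and with each sample left out they ran from 0 to 3 and from 0 to 2. In spheroids against livers the leave-out counts were 23 to 27 higher and 1 to 2 lower. In corrected explants against livers the higher count was 6 with the deposited corrected values, 26 higher and 15 lower were called on TPM before correction, and the leave-out counts were 10 to 17 higher and 0 to 3 lower. In corrected explants against spheroids there were 2 higher with pseudocount 0.1, 0 higher and 2 lower with no filter and again with the deposited corrected values, and 10 higher and 30 lower on TPM before correction, with 0 to 1 higher and 0 to 7 lower with each sample left out. Phgdh turned from lower to 0.96 on TPM before correction. The cause of these moves was not tested, except that leaving a sample out means fewer samples, and with 1 spheroid sample left its spread is assumed to be that of the other group.

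Correlations of deviations between samples with the same replicate number were 0.0604, 0.0314 and -0.0265 for hepatocyte preparations and livers, the comparison with 3 shared numbers, where not every sample went best with its own number. With 2 shared numbers they were 0.0676 and 0.0992 for spheroids and hepatocyte preparations, and 0.126 and 0.0341 for spheroids and livers. For explants they were 0.046 and -0.104 with irises, 0.00925 and -0.129 with livers, and 0.137 and 0.0683 with spheroids. All were taken from counts, with explants before iris correction. The 2 spheroid samples deviate from their mean by equal and opposite amounts, so their values say little of pairing. No label says that a number marks a shared mouse or day, so the samples are taken to share a number alone. With the replicate block, corrected explants gave 0 higher and 0 lower calls against livers and 0 and 0 against spheroids, and other pathway counts stayed within 1.5 times apart from the lower count given above. Of 740 values of single pathway genes under alternatives 633 kept their call and direction, 106 lost the call and 1 reversed. Of 729 fold changes of the 10 genes 693 moved by less than the spread and 36 by more. Depth limits Adm2, and 2 spheroid samples limit every comparison with them.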
